A study of Trichoderma reesei with 6 samples.

Results

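The genes described here had far more reads in a Trichoderma reesei mutant lacking the repressor gene cre1 than in the wild type. They were chosen by their own measured values, as those whose normalized count averaged at least 150 over the mutant libraries and at least 3 times the wild-type mean, with the lowest mutant library above the highest wild-type library. A total of 87 of 9129 protein IDs, or 0.953%, entered the set. A further 8 IDs met the same limits but belong to 15 IDs, mostly of plant cell wall-degrading enzymes, that were left out by the rule. Because the contrast between the strains chose the members, their levels and ratios are given below as a description without a test.

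Mycelia of Δcre1, the deletion mutant, were compared with those of QM9414, the wild-type strain, each with 3 libraries that the study calls biological replicates. Both strains sporulated on MEX medium, and spores were then placed in Mandels-Andreotti medium at 28 °C with 1 mM sophorose as the carbon source. Harvests at 2, 4 and 6 h are named in the study's design, but no label ties a library to an hour, so a difference in harvest time among the 3 libraries of a strain cannot be told apart from other spread. The sources used here do not say how many separate transformants the mutant stands for.

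CRE1 is a zinc finger protein that binds promoters and shuts off genes for the use of poorer carbon sources while glucose or another easily used sugar is at hand, a control known as carbon catabolite repression. Sophorose, a disaccharide of glucose, is the strongest known soluble inducer of cellulase genes in this fungus, and its breakdown releases glucose. Strains of T. reesei that lack a complete cre1 are known for producing more of these enzymes under repressing conditions.

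The libraries held 21688837, 18196564 and 21778997 counts for Δcre1 replicates 1 to 3, and 13122470, 17402437 and 19557827 counts for QM9414 replicates 1 to 3. All levels below are the authors' normalized counts, which are read counts divided by a size factor of the library and not corrected for gene length, so an order of genes by level is an order by reads. The deleted gene itself was at 765, 827 and 1138 normalized counts in the Δcre1 libraries, against 8674, 9238 and 8310 in the QM9414 libraries. Its log2 fold change was -3.26 ± 0.14 (SE), and the quasi-likelihood test of edgeR gave 2.02e-09 after Benjamini-Hochberg adjustment over all IDs tested. Reads were thus still assigned to cre1 in the mutant, and the sources used here do not say which stretch was deleted.

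Little is known of most members by name. Of the 87, 85 had an entry in the RefSeq gene table of strain QM6a, but 83 of these carried only a locus tag, and the symbols chi18-rel1 and ooc1 were the only names. The wild-type mean of the members ran over a wide range, with a lowest value of 12.0, a median of 287 and a highest value of 456020 normalized counts. In 31 members the wild-type mean was below 150, and in 10 of these it was below 50. The ratio of the mutant mean to the wild-type mean had a median of 4.32, and 50 members lay below 5, 29 between 5 and 10, and 8 at 10 or above. In 80 members the lowest Δcre1 library held at least 2 times the normalized count of the highest QM9414 library, and in 53 at least 3 times. The rule itself asked for a ratio of 3 and no overlap, so it favours such gaps, and the share over all IDs was not taken. edgeR's fit over all genes called 85 of the 87 higher at an adjusted p below 0.05, where 22.7% of the 8190 IDs tested were called higher, a count that the choice of members fixes.

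**Figure D1:**
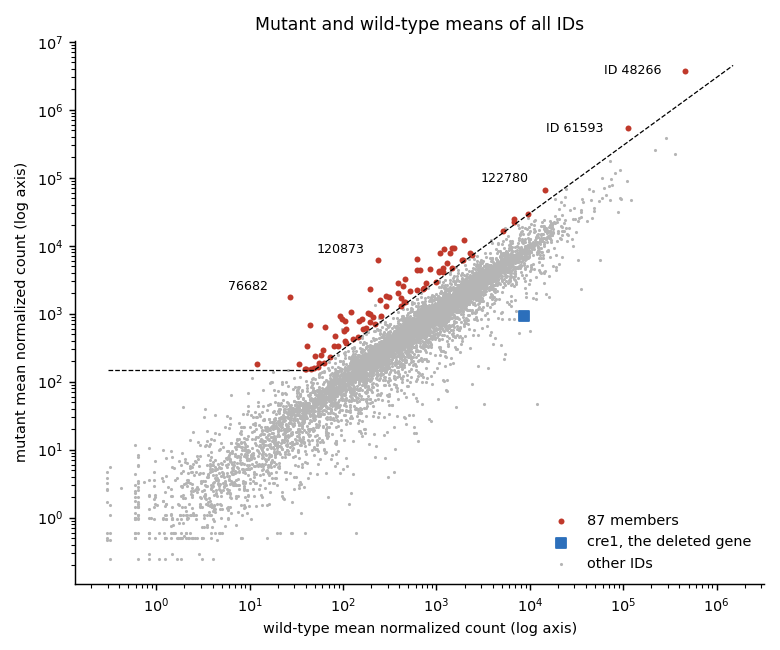
Mean normalized count in the 3 mutant libraries (vertical, log axis) against the mean in the 3 wild-type libraries (horizontal, log axis). Each point is 1 ID above 0 in both strains, the 87 members are red, the blue square is cre1, and the dashed lines are the limits of the rule, a mutant mean of 150 and a ratio of 3. Members are found at every level above the limit, and TRIREDRAFT_76682 and TRIREDRAFT_120873 stand farthest above the ratio line.

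The largest ratio belonged to TRIREDRAFT_76682, which was nearly silent in the wild type. It had 561, 2085 and 2617 normalized counts in the Δcre1 libraries, against 38.9, 9.60 and 31.8 in the QM9414 libraries. The ratio of means was 65.5, the highest among 6327 IDs with a mutant mean of at least 150 and any wild-type count. The strains did not overlap, and the lowest mutant library was still 14.4 times the highest wild-type library, but Δcre1 library 1 held far less than the other two.

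TRIREDRAFT_120873 came next in that order and was the steadier of the pair. Its normalized counts were 5801, 6126 and 6551 in the Δcre1 libraries, against 216, 254 and 234 in the QM9414 libraries, a ratio of 26.2. All 3 mutant libraries lay close together, and the lowest was 22.8 times the highest wild-type library, the widest gap of any member.

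Of the other members with a ratio of at least 10, TRIREDRAFT_119857 had 695, 763 and 613 normalized counts in the Δcre1 libraries and 52.7, 37.4 and 41.6 in the QM9414 libraries, a ratio of 15.7. TRIREDRAFT_73256 had 283, 82.1 and 183 in the Δcre1 libraries and 18.8, 6.72 and 10.6 in the QM9414 libraries, a ratio of 15.2. This gene was among the least abundant members, with as few as 7 raw counts in a wild-type library, and its mutant libraries differed by more than 3 times among themselves. TRIREDRAFT_69692 had 2325, 2303 and 2382 in the Δcre1 libraries and 163, 237 and 188 in the QM9414 libraries, a ratio of 11.9, with nearly equal values in the mutant. Ratios of 10.5, 10.1 and 10.0 were found for TRIREDRAFT_123955, TRIREDRAFT_102851 and TRIREDRAFT_123718. Their mutant means of 6440.0 ± 1196, 644 ± 20.6 and 924 ± 53.7 normalized counts (SD, n = 3) show that large ratios occurred at quite different levels.

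The 10 largest ratios end with ooc1 and TRIREDRAFT_3449. ooc1 had 845, 1126 and 543 normalized counts in the Δcre1 libraries, against 114, 66.2 and 109 in the QM9414 libraries, a ratio of 8.70. TRIREDRAFT_3449 averaged 1042 ± 149 in Δcre1 and 120.3 ± 19.7 in QM9414 (SD, n = 3 each), a ratio of 8.66. The other member with a symbol, chi18-rel1, is named after the chitinases, enzymes that cut the chitin of fungal cell walls. The name alone does not show what its product cuts, and chi18-rel1 lay near the lower end of the ratios. It had 7411, 7022 and 7791 in the Δcre1 libraries, against 2610.4, 2241 and 2417 in the QM9414 libraries, a ratio of 3.06.

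**Figure D2:**
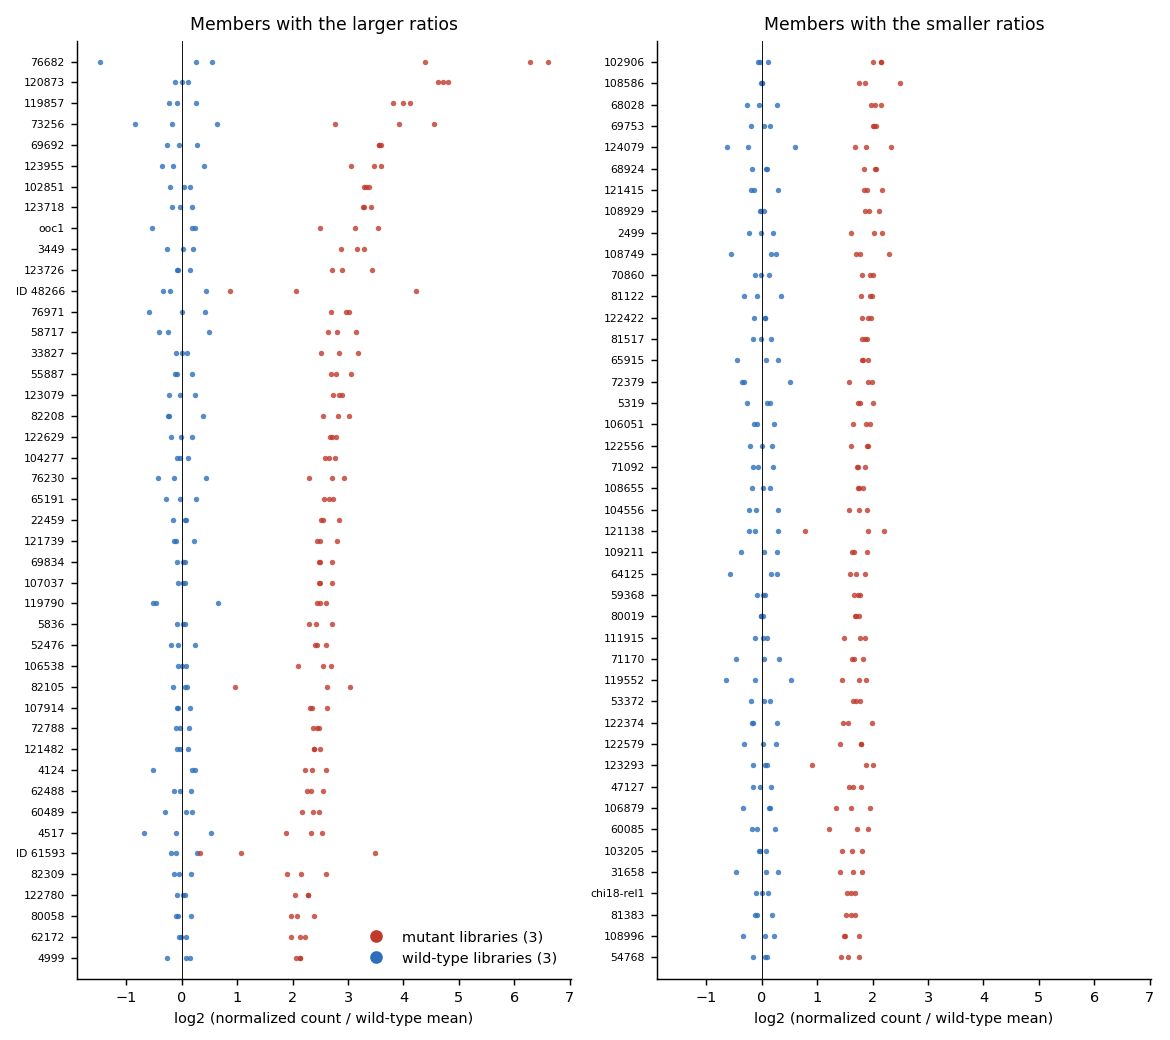
Normalized count of every member in each library, as log2 of its ratio to the wild-type mean (horizontal), with members sorted by ratio and labelled by locus tag number or symbol, the larger ratios in the left panel and the smaller ones in the right. Red points are the 3 mutant libraries and blue points the 3 wild-type libraries, and the red points of each member lie to the right of its blue points.

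By reads, protein IDs 48266 and 61593 outweighed all other members together, and both lack an entry in the gene table. Protein ID 48266 took 5.19, 33.0 and 9.91% of all counts in Δcre1 libraries 1 to 3, against 2.40, 2.14 and 3.56% in QM9414 libraries 1 to 3. Protein ID 61593 took 0.873, 4.80 and 1.20% in the Δcre1 libraries, against 0.627, 0.579 and 0.772% in the QM9414 libraries. Both were thus abundant in the wild type too, and both owed their high mutant mean to Δcre1 library 2. Their ratios of 8.22 and 4.83 correspond to log2 ratios of 3.04 and 2.27, which fell to 1.59 and 0.74 without that library, and these were the 2 members that edgeR did not call. The sources used here do not say what these IDs encode, and whether part of their reads came from other copies of the same sequence was not tested.

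The other 85 members made up a steady share of what remained. Of the counts outside those 2 IDs they took 2.25, 2.24 and 2.18% in Δcre1 libraries 1 to 3, against 0.552, 0.483 and 0.505% in QM9414 libraries 1 to 3. In RNA from whole mycelia, a larger share of cells with a transcript and more of that transcript per cell cannot be told apart. The most abundant of them was TRIREDRAFT_122780, with 59779.9, 70238 and 70934 normalized counts in the Δcre1 libraries against 15149, 13706 and 14851 in the QM9414 libraries, a ratio of 4.60. It alone held 0.397, 0.438 and 0.414% of the counts outside the 2 IDs in the mutant, and 0.0949, 0.0843 and 0.0898% in the wild type.

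Below it in mutant level stood TRIREDRAFT_81383, TRIREDRAFT_81517 and TRIREDRAFT_80019, all with small spread among the mutant libraries. TRIREDRAFT_81383 averaged 29219 ± 1593 normalized counts in Δcre1 and 9646 ± 1193 in QM9414 (SD, n = 3 each, here and in the rest of this paragraph). TRIREDRAFT_81517 averaged 24561 ± 827 in Δcre1 and 6782 ± 782 in QM9414. TRIREDRAFT_80019 averaged 22064 ± 616 in Δcre1 and 6719 ± 101 in QM9414. These abundant members had ratios of only 3.03, 3.62 and 3.28, while TRIREDRAFT_22459, TRIREDRAFT_76230 and TRIREDRAFT_121739 combined high levels with ratios of 6.24, 6.35 and 6.01. TRIREDRAFT_22459 averaged 12264 ± 1621 in Δcre1 and 1965 ± 177 in QM9414. TRIREDRAFT_76230 averaged 9305 ± 1991 in Δcre1 and 1465 ± 460.4 in QM9414. TRIREDRAFT_121739 averaged 9242 ± 1312 in Δcre1 and 1538 ± 225 in QM9414. By mutant mean, 20 members were at 5000 or above, 30 between 1000 and 5000, and 37 below 1000.

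The limits of the rule cut through a continuous range. Just inside the limit on the mutant mean were TRIREDRAFT_121138, TRIREDRAFT_2499 and TRIREDRAFT_124079 at 151, 153.8 and 154.0 normalized counts, and just outside were TRIREDRAFT_107704, TRIREDRAFT_58450 and TRIREDRAFT_50793 at 149, 139 and 116. Just inside the limit on the ratio were TRIREDRAFT_54768, TRIREDRAFT_108996 and TRIREDRAFT_81383 at 3.005, 3.006 and 3.03, and just outside were TRIREDRAFT_81096, TRIREDRAFT_37525 and TRIREDRAFT_103537 at 2.98, 2.975 and 2.97. TRIREDRAFT_58450, left outside by its level alone, had a ratio of 7.86, more than most members. The demand that the strains not overlap removed 0 genes, and it was met most narrowly by protein ID 61593, protein ID 48266 and TRIREDRAFT_121138, whose lowest mutant library was 1.05, 1.35 and 1.40 times the highest wild-type library.

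How closely the 3 mutant libraries lay together differed widely among the members. Their coefficient of variation over the Δcre1 libraries had a median of 10.9%, against 8.10% for 6240 other IDs that share with them only the limit of 150 on the mutant mean and were not matched to them by level. It lay below 10% in 42.5% of the members, against 62.5% of the other IDs, and above 30% in 9.20% of the members, against 2.31% of the other IDs. The rule used the mean and the lowest of these libraries, so the spread is given as a description without a test. The tightest were TRIREDRAFT_69692, TRIREDRAFT_69753 and TRIREDRAFT_80019, at 1.75, 1.83 and 2.79%.

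The 8 members above 30% did not share 1 pattern. Protein IDs 61593 and 48266, at 114 and 111%, peaked in Δcre1 library 2. TRIREDRAFT_76682, TRIREDRAFT_82105, TRIREDRAFT_121138 and TRIREDRAFT_123293 were low in Δcre1 library 1. TRIREDRAFT_82105 had 283, 1198 and 895 normalized counts in the Δcre1 libraries, against 155, 132 and 152 in the QM9414 libraries. TRIREDRAFT_123293 had 9545, 18838 and 20514 in the Δcre1 libraries, against 4564, 5431 and 5326 in the QM9414 libraries. In both, the wild-type libraries were close to each other and the mutant libraries were not. TRIREDRAFT_73256 was lowest in Δcre1 library 2, and ooc1 in Δcre1 library 3. Over all members, the lowest Δcre1 library was library 1 for 33, library 2 for 29 and library 3 for 25, so no library was low throughout the set. These are 37.9, 33.3 and 28.7% of the members, against 42.2, 24.8 and 33.0% of the same other IDs.

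**Figure D3:**
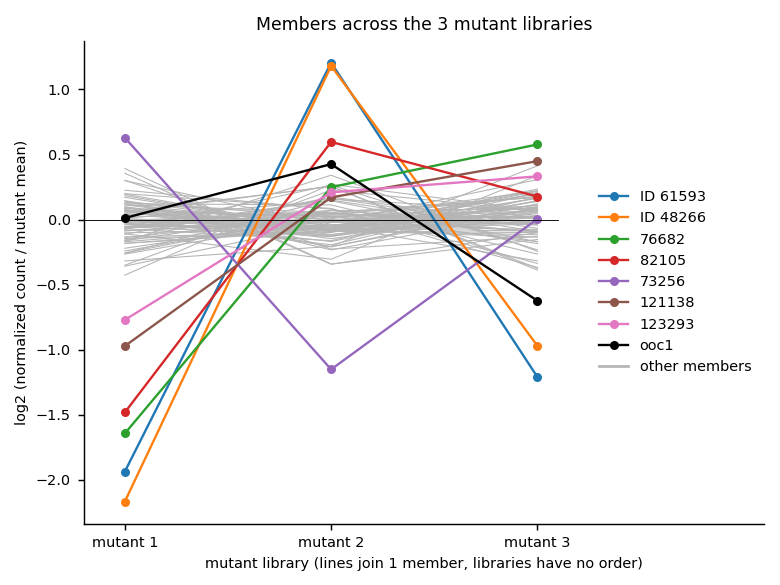
Normalized count of each member in the 3 mutant libraries, as log2 of its ratio to the mutant mean (vertical), with 1 line per member. The 8 members with a coefficient of variation above 30% are coloured, among them protein IDs 48266 and 61593 rise highest in library 2 and TRIREDRAFT_76682 and TRIREDRAFT_82105 lie far below 0 in library 1, while the other members (grey) stay nearer to 0.

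In the wild type, QM9414 library 2 was the lowest of the 3 in 47 members, or 54.0%, against 33.6% of the same other IDs, and QM9414 library 1 was the highest in 43, or 49.4%, against 35.1%. The rule used the mean and the highest of these libraries, so these shares are a description and are not read as a trait of the members. As 31 members also had a wild-type mean below 150, no coefficient of variation over the wild-type libraries is compared with that of other IDs.

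Position in the genome was not used to choose the members, and it showed that they often lay side by side. In the gene order of the RefSeq table, 22 of the 85 members with an entry, or 25.9%, had another member as the very next gene, while 1.76% of all 9116 genes in the table have a member on either side. These 22 formed 10 groups, 2 of 3 genes and 8 pairs, and in none did the gene spans overlap. The table gives no scaffold names, so ends of scaffolds were placed where the start coordinate drops, which gave 62 stretches.

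One group of 3 was TRIREDRAFT_5836, TRIREDRAFT_69692 and TRIREDRAFT_69753, with ratios of 5.60, 11.9 and 4.08. TRIREDRAFT_5836 had 6902, 7475 and 9136 normalized counts in the Δcre1 libraries, against 1422, 1315 and 1459 in the QM9414 libraries. TRIREDRAFT_69753 had 1726, 1667 and 1682 in the Δcre1 libraries, against 458, 425 and 362 in the QM9414 libraries. TRIREDRAFT_69692, whose values stand above, and TRIREDRAFT_69753 were nearly level across the mutant libraries, while TRIREDRAFT_5836 was highest in Δcre1 library 3.

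The other group of 3 was TRIREDRAFT_82208, TRIREDRAFT_52476 and TRIREDRAFT_124079, with ratios of 6.99, 5.59 and 3.99. TRIREDRAFT_82208 had 2657, 3208 and 3718 normalized counts in the Δcre1 libraries, against 389, 384 and 598 in the QM9414 libraries. TRIREDRAFT_52476 had 999, 964 and 1106 in the Δcre1 libraries, against 159, 175 and 215 in the QM9414 libraries. TRIREDRAFT_124079 had 143, 125 and 195 in the Δcre1 libraries, against 32.6, 25.0 and 58.4 in the QM9414 libraries. All 3 genes were highest in library 3 of each strain.

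Among the pairs, TRIREDRAFT_58717 and TRIREDRAFT_76230 moved together from library to library. TRIREDRAFT_58717 had 2703, 3429 and 2426 normalized counts in the Δcre1 libraries and 327, 295 and 548 in the QM9414 libraries. TRIREDRAFT_76230 had 9639, 11109 and 7168 in the Δcre1 libraries and 1332, 1087 and 1978 in the QM9414 libraries. Both were highest in Δcre1 library 2 and, in the wild type, in QM9414 library 3. TRIREDRAFT_76682, the member with the largest ratio, lay beside TRIREDRAFT_121138, one of the least abundant, which had 76.9, 169.9 and 206 in the Δcre1 libraries and 41.4, 38.4 and 54.8 in the QM9414 libraries. Both were low in Δcre1 library 1, and the ratio of TRIREDRAFT_121138 was 3.37.

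The remaining 6 pairs had ratios from 3.09 to 7.46, at widely differing levels. TRIREDRAFT_76971 and TRIREDRAFT_47127 had ratios of 7.46 and 3.18, TRIREDRAFT_121415 and TRIREDRAFT_60489 of 3.93 and 5.07, and TRIREDRAFT_62172 and TRIREDRAFT_4124 of 4.33 and 5.28. TRIREDRAFT_108749 and TRIREDRAFT_4517 had ratios of 3.86 and 4.83, TRIREDRAFT_109211 and TRIREDRAFT_122780 of 3.34 and 4.60, and TRIREDRAFT_71092 and TRIREDRAFT_31658 of 3.41 and 3.09. Levels within a pair could differ widely, as for TRIREDRAFT_109211, with a mutant mean of 425 ± 44.8 normalized counts (SD, n = 3), beside TRIREDRAFT_122780, the most abundant member with a gene entry. Of the 12 adjacent pairs formed by the 10 groups, 7 ranked the 3 mutant libraries in the same order, or 58.3%, against 21.0% of 4831 other adjacent pairs with mutant means of at least 150. For the wild-type libraries the share was 25%, against 19.1%.

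**Figure D4:**
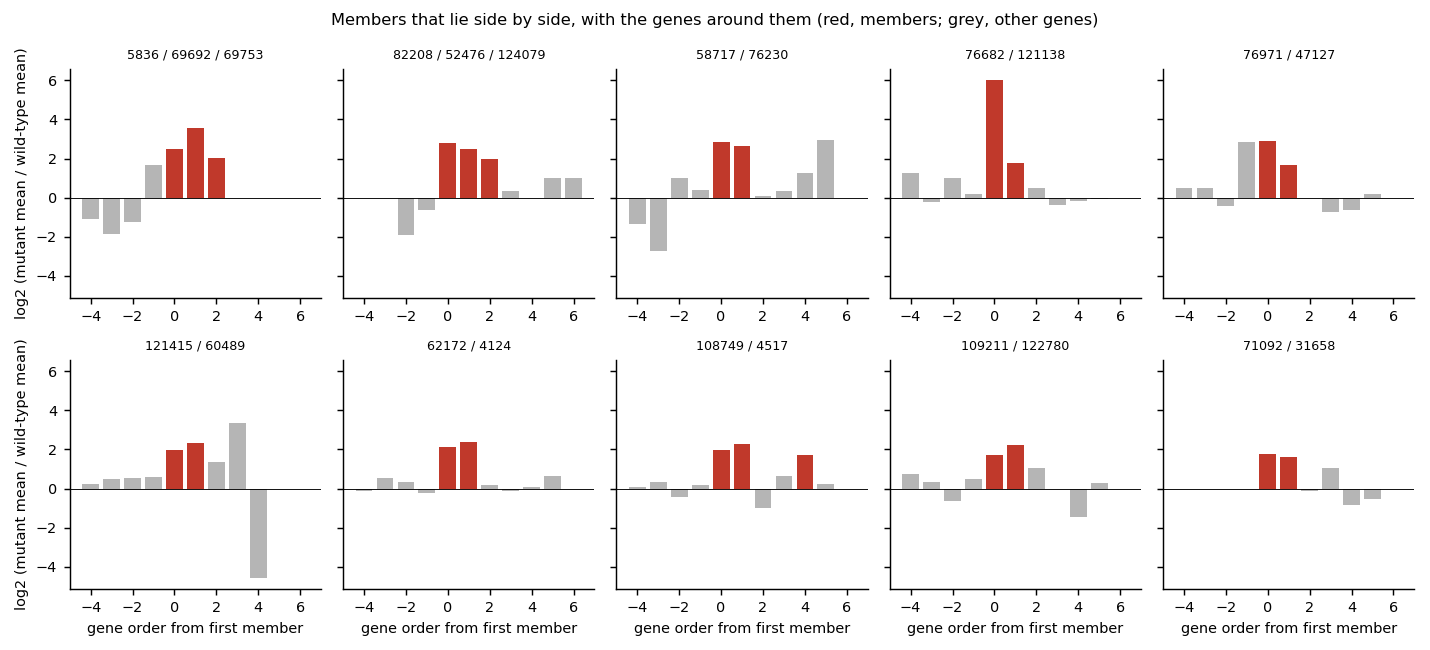
log2 ratio of the mutant mean to the wild-type mean (vertical) for the members that lie side by side and the genes around them (horizontal, gene order counted from the first member of the group), with 1 panel per group, named by its adjoining members. Members are red and other genes grey, genes at 0 in a strain or beyond the end of a stretch are left blank, and the red bars stand above most of the grey bars around them. The lone red bar in the panel of TRIREDRAFT_108749 and TRIREDRAFT_4517 is the member TRIREDRAFT_64125.

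Genes directly beside a member were taken by their place, leaving out those that were members or among the 15 left-out IDs, so they are set beside the tested IDs that are neither. Of 137 such neighbours 118 could be tested, 18 had too few counts and 1 was not in the count table. edgeR's quasi-likelihood test called 44 of the 118 higher, or 37.3%, against 21.8% of the 8090 IDs that are neither and 22.7% of all IDs tested. It called 17 lower, or 14.4%, against 23.5% of the IDs that are neither and 23.2% of all IDs tested. The median log2 fold change of the neighbours was 0.22, against 0.01 for the IDs that are neither. At least 2-fold higher calls were made for 13.6% of the neighbours, against 2.87% of the IDs that are neither, and at least 2-fold lower calls for 3.39%, against 9.41%. These shares are a description, as neighbours of 1 member are not independent of each other.

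Genes a place further out came closer to the shares of all IDs. Among 112 tested genes at a distance of 2 places, 34 were called higher, or 30.4%, and 24 lower, or 21.4%. With library totals as the scaling, the median log2 fold change of all IDs shifted to -0.21, and 18 of the direct neighbours were called higher, or 15.3%, against 4.88% of all IDs. Taken by member, 14 had on both sides a gene that was a member or called higher, or 16.5%, against 5.23% of 6214 other genes with a mutant mean of at least 150. Another 42 had such a gene on 1 side, or 49.4%, against 33.8%, and 29 on neither, or 34.1%, against 61.0%.

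The neighbours that rose most were genes of low level. TRIREDRAFT_108928, which lies between the members TRIREDRAFT_122629 and TRIREDRAFT_108929, had 31.8, 25.5 and 33.6 normalized counts in the Δcre1 libraries, against 5.02, 2.88 and 1.77 in the QM9414 libraries. Its log2 fold change was 3.29 ± 0.47 (SE, edgeR adjusted p = 6.00e-05). The members around it averaged 4356 ± 179.8 and 754 ± 71.0 in Δcre1 and 660.3 ± 86.8 and 192 ± 5.68 in QM9414 (SD, n = 3 each), so this gene was far below both. TRIREDRAFT_60557, beside TRIREDRAFT_121482, rose by 2.85 ± 0.55 (edgeR adjusted p = 0.000743), and TRIREDRAFT_106229, beside TRIREDRAFT_76971, by 2.84 ± 0.46 (edgeR adjusted p = 0.000234). TRIREDRAFT_70855, beside TRIREDRAFT_70860, rose by 1.93 ± 0.41 (edgeR adjusted p = 0.00151), and TRIREDRAFT_111958, beside TRIREDRAFT_5836, by 1.64 ± 0.37 (edgeR adjusted p = 0.00232). The calls of these 5 genes held in every alternative tried.

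Other neighbours fell while the member beside them was higher. TRIREDRAFT_54865, beside TRIREDRAFT_102906, had 31.8, 22.7 and 16.8 normalized counts in the Δcre1 libraries, against 504, 541 and 363 in the QM9414 libraries. Its log2 fold change was -4.26 ± 0.23 (SE, edgeR adjusted p = 6.58e-09), while TRIREDRAFT_102906 averaged 249.8 ± 14.1 in Δcre1 and 58.1 ± 3.83 in QM9414 (SD, n = 3 each). TRIREDRAFT_122495, beside TRIREDRAFT_108655, fell by 2.33 ± 0.30 on the log2 scale (edgeR adjusted p = 0.000186). TRIREDRAFT_122160, beside TRIREDRAFT_22459, fell by 1.90 ± 0.25 (edgeR adjusted p = 3.15e-05), and TRIREDRAFT_124007, beside TRIREDRAFT_111915, by 1.86 ± 0.19 (edgeR adjusted p = 2.11e-06). TRIREDRAFT_106537 beside TRIREDRAFT_106538, passed the threshold narrowly, at -0.98 ± 0.38 with an edgeR adjusted p of 0.0498, and lost its call in 10 alternatives.

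A neighbour with a symbol, picked after the values were seen, was acu9, beside TRIREDRAFT_64125. It shares its name with a malate synthase gene of Neurospora crassa that serves growth on acetate. acu9 had 4917, 4673 and 5717 normalized counts in the Δcre1 libraries, against 3605, 2994 and 3199 in the QM9414 libraries, a log2 fold change of 0.65 ± 0.10 (SE, edgeR adjusted p = 0.000108). The call was lost when libraries were scaled by their totals (edgeR adjusted p = 0.146). The member TRIREDRAFT_64125 averaged 159.8 ± 15.2 normalized counts in Δcre1 and 48.3 ± 13.7 in QM9414 (SD, n = 3 each).

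Genes of plant cell wall-degrading enzymes are the best known targets of sophorose and CRE1, and the rule left 13 of 38 such genes out of the set by name, 6 of which met all its limits. The list of 38 was made by locus with earlier results of these data known. Of these, 36 were tested, and 19 were called higher, or 52.8% against 22.7% of all IDs tested, and 3 lower, or 8.33% against 23.2%. Their median log2 fold change was 0.50, against 0.01 for all IDs tested. All 11 tested genes among the 13 were called higher, so the share over the 36 rests largely on genes that the rule left out by name. Among the 25 others 8 were called higher and 3 lower, where 22.7% and 23.2% of all IDs tested were. These shares are a description without a test. The 8 called higher outside the 13 had log2 fold changes from 0.50 (TRIREDRAFT_72567) to 1.22 (man5a), with cel61a at 1.19 and cel7b at 1.11. The calls of man5a and TRIREDRAFT_72567 were lost in 5 and 4 alternatives. Also among the 8, the endoglucanase gene cel5a had a log2 fold change of 0.99 ± 0.17 (SE, edgeR adjusted p = 0.000815). For cip1, a secreted protein induced with cellulases, it was 0.74 ± 0.13 (SE, edgeR adjusted p = 0.000496). The gene cel7a, of the main cellobiohydrolase, was not called, at 0.45 ± 0.20 (SE, edgeR adjusted p = 0.0735). The 3 genes called lower were cel5b, an endoglucanase gene, at -2.07 ± 0.10 (SE, edgeR adjusted p = 1.69e-09), TRIREDRAFT_76227 at -0.95 ± 0.08 (SE, edgeR adjusted p = 2.32e-07) and cel1a, of an intracellular beta-glucosidase, at -0.63 ± 0.14 (SE, edgeR adjusted p = 0.00228).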

How the data were processed

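RNA-seq libraries of mycelia were used, 3 of Δcre1 and 3 of QM9414, all with 1 mM sophorose, grouped by title. The authors deposited raw read counts per protein ID, a second table of counts divided by 1 size factor per library (a signal that is never negative), and a table with a log2 fold change and an adjusted p-value of the authors' comparison, per the file headers. The submitters' processing notes name DESeq 1.10.1, SAMtools 0.1.18 and Bowtie 0.12.8. The sources used here give no genome build, annotation, counting tool or strand setting, so how reads of similar, overlapping or antisense genes were counted cannot be traced. In the authors' deposited table, 64 of the 87 members had an adjusted p below 0.05. The same contrast chose the members, and the share over all IDs was not taken. The others were protein IDs 48266 and 61593 and the least abundant members, with mutant means of 478 normalized counts or less. Those least abundant members all held the same adjusted p, the largest value possible, which can stand for a missing value. It is therefore not read as weak evidence. Whether a limit on level kept them out of the authors' calls was not tested.

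The members and lists were chosen with earlier results of these data known. Members were selected on the normalized table. Raw counts were fitted with edgeR 4.0.16 in R 4.3.3 (filterByExpr, TMM scaling, glmQLFit robust, glmQLFTest, two-sided, strain as the only term), with Benjamini-Hochberg adjustment over 8190 IDs and a threshold of 0.05, after the script was tested on simulated data. Each standard error is the log2 fold change divided by the root of its F statistic. No label ties the libraries to separate cultures, so p-values reflect only how far these libraries lie apart. DESeq2 1.42.0 was an alternative. Of 9129 IDs 9072 matched a RefSeq locus tag (QM6a, assembly v2.0), which served for names and gene order only. Python 3.11.15, pandas 2.3.3, numpy 2.4.6 and matplotlib 3.10.9 were used. No 2 libraries of the same strain agreed within sampling noise.

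Named were members with a symbol, the 10 highest by mutant mean and by ratio, the 3 IDs nearest each limit on either side, members beside a member, the 3 with the largest and smallest spread, members not called by edgeR, and up to 5 called neighbours per direction. Planned analyses of promoter motifs and protein features were not run, as no sequences were used here.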

Additional observations from a re-analysis of the deposited data

How the results depend on the processing

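The number of members depended most on the ratio asked for, with 132 IDs at 2.5 and 48 at 4. It was 87 with TMM scaling (the same 87 IDs), 87 with medians (80 of them shared), 61 with library totals, 92 and 74 with a mutant mean of at least 100 and 300, and 80 to 99 when 1 library was left out. Leaving out 1 library gave 1468 to 1791 IDs called higher, 1599 to 1910 called lower, 38 to 44 neighbours called higher, 14 to 17 called lower, 16 to 22 enzyme genes called higher, and a log2 fold change of cre1 of -3.46 to -3.14. Among the members that left the set with library totals, without Δcre1 replicate 3 or without QM9414 replicate 2 were chi18-rel1 and TRIREDRAFT_81383. With library totals alone as the scaling, 400 IDs were called higher, and 18 neighbours. That scaling counts the 2 most abundant members, up to 37.8% of a library, against all others. Totals without those 2 members, an alternative chosen after seeing the data, gave 90 members, 86 of them shared, 1772 IDs called higher and 44 neighbours called higher. DESeq2's Wald test called 1741 IDs higher and 1907 lower. Within 2 genes on each side, 78 neighbours were called higher and 41 lower, as more genes were counted. Within 3 genes of a member, 25 members had another member. For 42 named members under 9 alternatives, 0 of 378 log2 ratios changed sign and 24 moved by more than the spread between replicates. Changes by over 1.5 times were limited to protein IDs 48266 and 61593, with the replicate block (2.34 and 1.56) and without Δcre1 replicate 2. Same-numbered libraries of the strains correlated in their deviations at 0.170, 0.0354 and 0.110, and unlike-numbered ones at -0.165 to 0.0740. These values do not settle whether the numbers pair the libraries, and the main fit did not pair them. With a replicate block, 1939 IDs were called higher and 2003 lower, 47 neighbours higher and 16 lower, and 20 enzyme genes higher. Promoter motifs and protein features were not run. Low wild-type counts limit the ratios of the least abundant members, 5 of which had under 30 raw counts in a QM9414 library.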
